A study of Mus musculus with 12 samples.

Results

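The vacuolar proton pump (V-ATPase) has a membrane sector, V0, and this account describes the RNA of 8 genes of that sector and of 2 genes for its accessory proteins in mouse sciatic nerve: Atp6v0a1, Atp6v0a2, Tcirg1, Atp6v0b, Atp6v0c, Atp6v0d1, Atp6v0d2, Atp6v0e, Atp6ap1 and Atp6ap2. They were chosen by symbol from 38087 gene models, and all 10 were among the 22384 models with enough counts to test. Bulk RNA was sequenced in 4 groups of 3 biological replicates. The first was the distal stump 5 days after transection (5DPI) of mice called dKO here, which carried Dhh-Cre, loxP-flanked Tfeb alleles (Tfebflox/flox) and a knockout of Tfe3 (Tfe3KO). The second was the same tissue and time in control mice, which carried the same Tfebflox/flox alleles without the Cre (Dhh-Cre-) and kept Tfe3 (Tfe3+). The other groups were uninjured nerves from the opposite side, dKO and control, collected at the same time and stripped of the epineurium, the outer sheath. Dhh is active in the Schwann cell lineage, so Tfeb was to be lost in Schwann cells only, whereas the Tfe3 knockout was not limited by the Cre and by design also covered other cells of the nerve, macrophages included. The labels state no age.

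The V-ATPase acidifies lysosomes and other compartments: its outer V1 sector splits ATP, and the V0 sector carries protons across the membrane. Within V0 the a subunits hold the proton path and steer the pump to different membranes, the c-type proteolipids form the rotating ring, the d subunits join ring and V1 shaft, and the accessory proteins take part in assembly. TFEB and TFE3 are transcription factors known to act on lysosomal genes, including V-ATPase genes, through a short DNA element. After nerve injury, Schwann cells and macrophages break down myelin in acid compartments.

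Library totals ran from 15430999 to 35845371 counts. Values are CPM, counts scaled to library size with TMM factors, and changes are log2 fold changes with a standard error (SE) and a Benjamini-Hochberg adjusted p over the 22384 models from edgeR's quasi-likelihood test, called under 0.05. Tfe3 counts over the whole gene stood at 49.5 to 53.8 CPM in dKO and 55.0 to 67.6 CPM in control nerve at 5 days, and at 43.3 to 47.4 and 56.7 to 62.1 CPM in intact dKO and control nerve. Tfeb ranges overlapped at 5 days (14.2 to 29.8 CPM in dKO and 18.2 to 24.0 CPM in control). In intact nerve they did not, at 17.0 to 19.5 CPM in dKO and 22.6 to 26.9 CPM in control. Tfe3 was lower in each dKO library than in each control library, at 5 days and in intact nerve. Whole-gene counts do not single out the deleted part, and they do not show a full loss of either gene. Schwann cell markers summed to between 60848 and 66201 CPM in dKO and between 56479 and 73907 CPM in control intact nerve. All dKO libraries at 5 days and control replicate 4 at 5 days stood apart, with reads on 159 to 345 of 1098 olfactory receptor genes at equal depth, against 41 to 68 in the other 8 libraries. These 4 are called the second library set here. Control replicate 1 at 5 days was female by Xist (10712 counts, against at most 23 elsewhere). It also held 244 counts on Y-linked genes, against 1907 to 3724 elsewhere, and their source was not tested. The library set and sex were each also fitted as a term, and members were also compared without these libraries; their part in a result was not tested beyond that.

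TFEB and TFE3 are known to bind the letters CACGTG, as in the element of many lysosomal genes, and the promoters with a match are shown because they allow the members to be set beside the factors that were removed. RefSeq promoters (GRCm38.p6) of 250 bases before to 50 after a start held 8 of the 10 genes, with 12 starts; Atp6v0a2 and Atp6v0d2 had no entry. CACGTG was found in 3 of the 8 genes (Atp6v0b, Atp6v0d1 and Atp6v0e), against 8.09% of all genes in the table. The longer TCACGTG, which contains it, was found in the same 3, against 4.29% of all genes, and TCATGTG in Atp6v0c, against 4.31%. Both strands were searched. The windows below run from 95 bases before the start to the first 12 bases from it, 5′ to 3′ on the strand of the gene, with matches to any of these motifs in capitals.
Atp6v0b, chr4:117887318-117887424, minus strand: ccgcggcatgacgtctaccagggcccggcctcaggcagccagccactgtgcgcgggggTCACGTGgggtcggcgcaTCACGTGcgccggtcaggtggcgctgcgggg
Atp6v0d1, chr8:105566053-105566159, minus strand: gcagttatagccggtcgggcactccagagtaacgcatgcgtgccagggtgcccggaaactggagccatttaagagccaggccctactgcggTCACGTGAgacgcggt
Atp6v0e, chr17:26676301-26676407, plus strand: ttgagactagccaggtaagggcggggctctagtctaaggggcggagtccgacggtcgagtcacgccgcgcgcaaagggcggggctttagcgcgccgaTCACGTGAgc
Atp6v0c (one of 3 starts), chr17:24169439-24169545, minus strand: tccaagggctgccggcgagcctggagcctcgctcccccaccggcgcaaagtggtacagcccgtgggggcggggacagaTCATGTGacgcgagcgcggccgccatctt

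Transection raised most of the V0 genes in control nerve and fewer in dKO nerve. In dKO nerve 4 of the 10 rose (Tcirg1, Atp6v0b, Atp6v0d2 and Atp6ap2) and 3 fell (Atp6v0a1, Atp6v0a2 and Atp6v0d1), and in control nerve 6 rose (the same 4, with Atp6v0c and Atp6v0e) and 2 fell (Atp6v0a1 and Atp6v0a2). Of all tested genes 22% rose and 22.6% fell in dKO nerve, and 24.4% rose and 22.4% fell in control nerve. The median change of the 10 was 0.03 in dKO nerve, against 0.05 for all genes, and 0.53 in control nerve, against 0.09 for all genes. Groups did not overlap for 8 of the 10 in dKO nerve and for 9 of the 10 in control nerve, where 61% and 53.3% of all tested genes were so parted. All dKO libraries at 5 days belong to the second library set, and no dKO intact library does. Within dKO nerve, transection and library set thus cannot be told apart. With the set as a term 3 of the 7 dKO calls passed (Tcirg1, Atp6v0a1 and Atp6v0d2). In that fit 2146 genes were higher and 2153 lower in all.

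**Figure D1:**
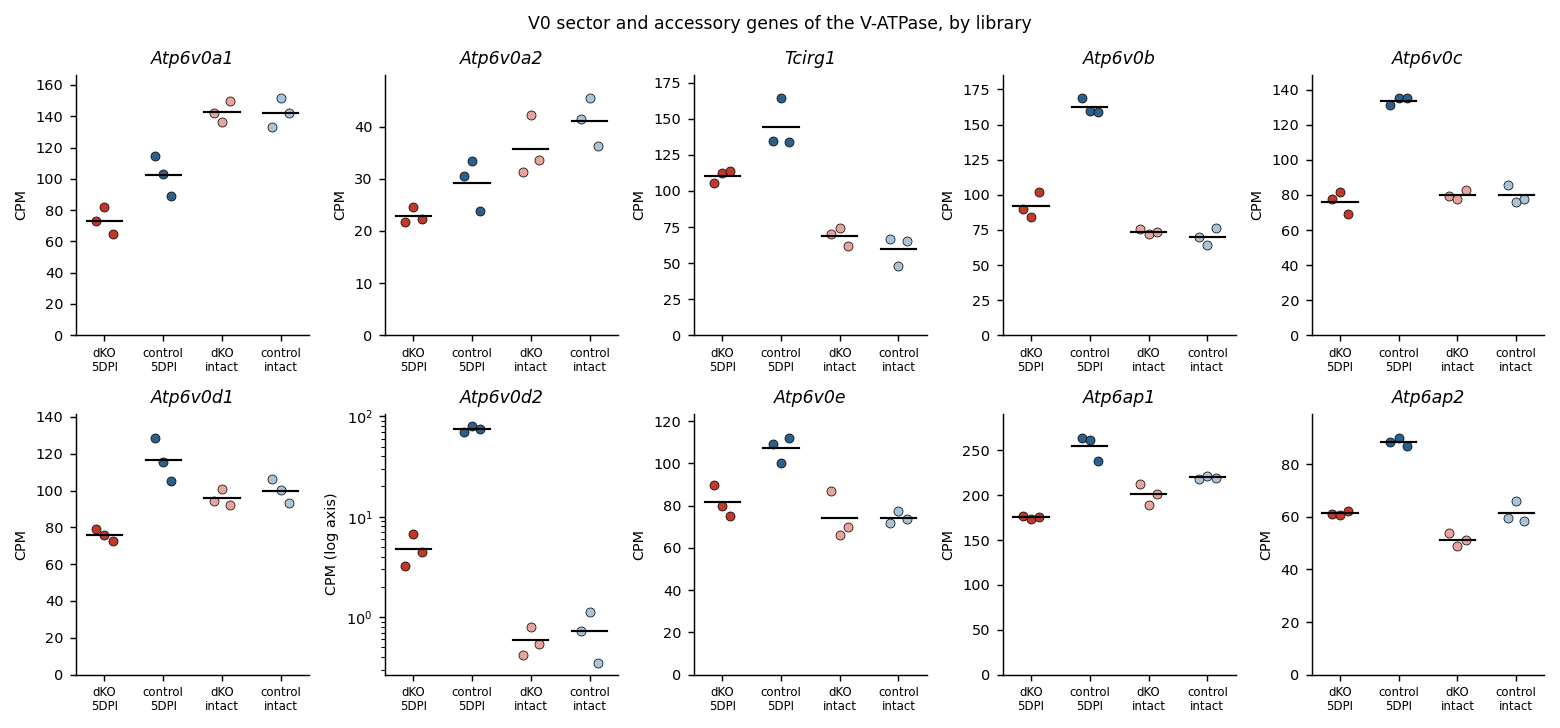
CPM of the 10 genes in each library (points) with the mean of each group (bars), from left to right dKO and control at 5 days and dKO and control intact; Atp6v0d2 has a log axis. At 5 days the mean was lower in dKO than in control nerve for each gene, and Atp6v0d2 stood at 3.23 to 6.72 CPM in dKO against 69.5 to 80.7 CPM in control.

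At 5 days 8 of the 10 genes were lower in dKO than in control nerve and 0 were higher, where 8.97% of all tested genes were lower and 3.12% higher. The 8 were Atp6v0d2, Atp6v0b, Atp6v0c, Atp6v0d1, Atp6ap1, Atp6ap2, Atp6v0a1 and Atp6v0e. The change of Tcirg1 (-0.38, SE 0.13, adjusted p = 0.073) did not pass, though it did without control intact replicate 2 (-0.34, adjusted p = 0.0297), and that of Atp6v0a2 (-0.35, SE 0.15, adjusted p = 0.145) passed only without control replicate 4 at 5 days (-0.49, adjusted p = 0.0351) among the fits with a library left out. The median change was -0.53, against -0.02 for all genes, and groups did not overlap for 9 of the 10, against 30.5% of all tested genes. These values compare bulk tissue, in which fewer cells of a type and less RNA per cell cannot be told apart. Since 3 dKO libraries and only 1 control library belong to the second set, the genotypes were also compared within that set (3 against 1). Within it 4 genes were called, all lower in dKO nerve: Atp6v0d2, Atp6v0b, Atp6v0c and Atp6ap2. In that fit 1.51% of 24015 tested genes were lower and 0.725% higher.

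**Figure D2:**
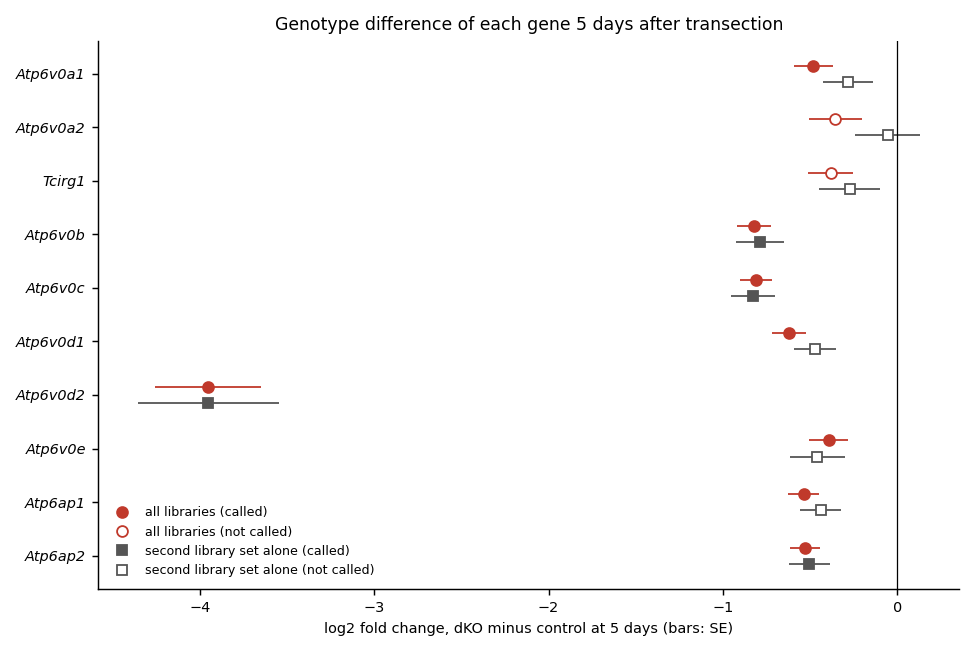
Log2 fold change of dKO over control nerve at 5 days (x axis) with its SE for each gene, from all libraries (circles) and with the 5 day libraries of the second set alone (squares); filled marks passed the test. Each estimate lies below 0, and Atp6v0d2 stands at -3.96 in all libraries and at -3.95 within the second set.

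The d subunit gene Atp6v0d2, an isoform best known from osteoclasts and macrophages of mice, moved most. It stood at 3.23, 6.72 and 4.45 CPM in dKO and at 69.5, 80.7 and 74.7 CPM in control nerve at 5 days. Intact nerve held 0.421, 0.793 and 0.543 CPM in dKO and 0.732, 1.12 and 0.351 CPM in control, from 10 to 27 counts per library. Injured libraries of either genotype were above all intact ones, and all 3 dKO libraries at 5 days were far below all 3 control ones. With transection it rose by 3.01 (SE 0.35, adjusted p = 1.38e-05) in dKO nerve, against 6.69 (SE 0.37, adjusted p = 6.69e-09) in control nerve. In dKO nerve at 5 days the gene reached 6.4% of the control mean (change -3.96, SE 0.30, adjusted p = 4.01e-06). The difference of the transection changes, dKO minus control, was -3.68 (SE 0.51, adjusted p = 0.00156). Within the second set control replicate 4 held 74.7 CPM, and the genotype change was -3.95 (SE 0.41, adjusted p = 0.000517). Atp6v0d2 spans bases 19876841 to 19922605 of chromosome 4 on the minus strand (GRCm38, the mm10 build, GENCODE M21, as for all positions here).

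Atp6v0d1, the d isoform that most tissues express, lay far closer between groups. It held 78.9, 76.1 and 72.8 CPM in dKO and 129, 116 and 105 CPM in control nerve at 5 days, and 94.5, 101 and 92.2 CPM in dKO and 106, 100 and 93.1 CPM in control intact nerve. Every dKO library at 5 days was below every library of the other groups, and the 2 intact groups overlapped. Transection lowered it in dKO nerve (-0.34, SE 0.10, adjusted p = 0.0118), while in control nerve the change was 0.22 (SE 0.10, adjusted p = 0.0727). The dKO fall did not pass with the library set as a term (-0.12, SE 0.16, adjusted p = 0.665) or with upper-quartile scaling (-0.19, SE 0.09, adjusted p = 0.0928), and the control change passed as a rise in 4 of 26 alternatives: with upper-quartile scaling, the stricter filter or the set term, and without control replicate 4 at 5 days (0.29, adjusted p = 0.0281). At 5 days it was lower in dKO nerve (-0.62, SE 0.10, adjusted p = 0.000865), and within the second set the change was -0.47 (SE 0.12, adjusted p = 0.0764). The gene lies on chromosome 8 from 105524465 to 105566047, minus strand.

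As a share of the d subunit RNA per length (Atp6v0d2 of both d genes, from reads per kilobase scaled to library size, RPKM), Atp6v0d2 made up 2.63%, 5.51% and 3.88% in dKO and 26.3%, 31.5% and 31.9% in control nerve at 5 days. It made up 0.40% ± 0.11 in dKO and 0.48% ± 0.24 in control intact nerve (SD, n = 3 each). The control libraries at 5 days thus lay apart from all 9 others in the isoform composition of the d subunit. Control replicate 1, the female library, had the lowest share of its group.

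**Figure D3:**
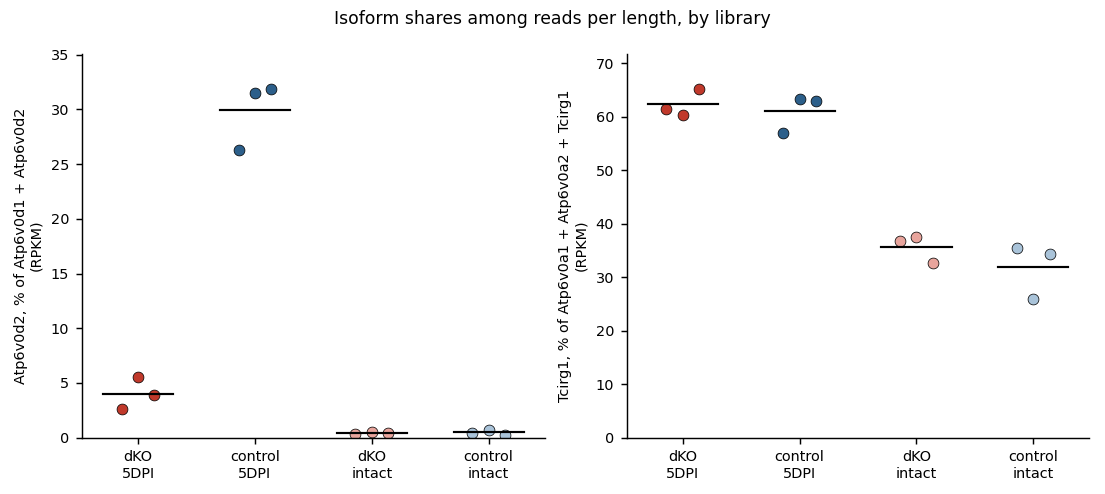
Share of Atp6v0d2 among the d subunit genes (left) and of Tcirg1 among 3 a subunit genes (right), in percent of summed RPKM, per library (points) and as group means (bars). Atp6v0d2 averaged 4.01% in dKO and 29.9% in control nerve at 5 days, while Tcirg1 averaged 62.3% and 61.1%.

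The ring genes Atp6v0b and Atp6v0c, which encode proteolipids with a proton-carrying residue, both rose in control nerve, whereas in dKO nerve Atp6v0b rose less and Atp6v0c did not pass. Atp6v0b stood at 89.9, 84.1 and 102 CPM in dKO and at 169, 159 and 159 CPM in control nerve at 5 days, and at 75.8, 71.9 and 73.3 CPM in dKO and 70.0, 64.2 and 76.6 CPM in control intact nerve. Injured control libraries were the highest, injured dKO libraries came between, and the intact groups overlapped. It rose by 0.32 (SE 0.10, adjusted p = 0.0161) in dKO nerve, against 1.21 (SE 0.10, adjusted p = 1.74e-07) in control nerve, a difference of -0.89 (SE 0.14, adjusted p = 0.0029). The dKO rise was lost with the library set as a term (0.37, SE 0.18, adjusted p = 0.177) and without any 1 of dKO replicate 4 at 5 days and the 3 dKO intact libraries (adjusted p up to 0.0809), and in all in 7 of 26 alternatives, which include no low-count filter and a threshold of 0.01. Its genotype change at 5 days was -0.82 (SE 0.10, adjusted p = 9.56e-05), while within the second set it was -0.79 (SE 0.14, adjusted p = 0.0102).

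Atp6v0b lies on chromosome 4 from 117884326 to 117887333 on the minus strand, and an antisense gene model, Gm12841, covers part of it on the other strand from 117883621 to 117885995. No source used here says whether counting used the strand, so reads of the 2 genes cannot be told apart. Gm12841 had 72.1% to 80.6% of the counts of Atp6v0b in every library and changed alike at 5 days (-0.83, SE 0.10, adjusted p = 0.00012).

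Atp6v0c held 77.6, 81.7 and 69.1 CPM in dKO and 131, 135 and 135 CPM in control nerve at 5 days, and 79.3, 77.8 and 82.7 CPM in dKO and 85.9, 75.9 and 77.8 CPM in control intact nerve. Injured control libraries stood above all 9 others, which overlapped. It rose in control nerve (0.74, SE 0.09, adjusted p = 1.04e-05), and in dKO nerve its change was -0.07 (SE 0.09, adjusted p = 0.567), or 0.07 with upper-quartile scaling. The difference between these changes was -0.81 (SE 0.13, adjusted p = 0.00314). Between genotypes at 5 days it changed by -0.81 (SE 0.09, adjusted p = 6.04e-05) and, within the second set, -0.83 (SE 0.13, adjusted p = 0.00484). Atp6v0c lies on chromosome 17 from 24163866 to 24169702, minus strand.

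**Figure D4:**
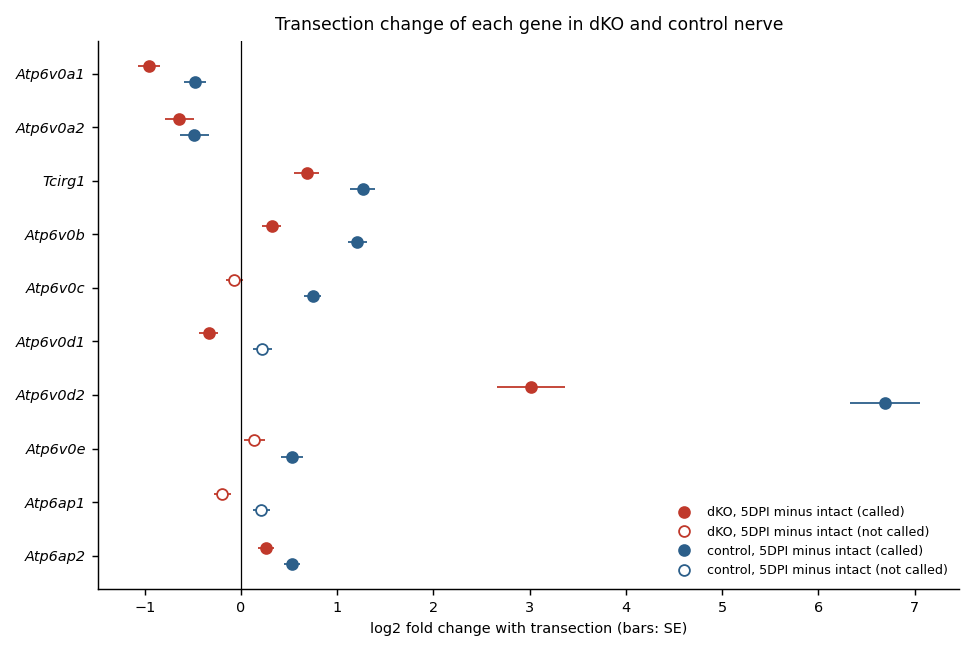
Log2 fold change with transection (x axis) with its SE for each gene, in dKO nerve (red, upper mark) and control nerve (blue, lower mark); filled marks passed the test. The dKO mark lies to the left of the control mark for each gene, by most for Atp6v0d2 (3.01 in dKO and 6.69 in control nerve).

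The a subunit genes changed in opposite directions with injury. Tcirg1, whose product is the a subunit of the osteoclast pump and whose loss causes dense bone in mice, had 106, 113 and 114 CPM in dKO and 134, 164 and 134 CPM in control nerve at 5 days. Intact nerve held 70.4, 74.5 and 62.1 CPM in dKO and 66.9, 47.9 and 65.0 CPM in control. Both injured groups lay above both intact groups, and the dKO libraries at 5 days lay below the control ones. Tcirg1 rose by 0.68 (SE 0.13, adjusted p = 0.000732) in dKO and by 1.27 (SE 0.13, adjusted p = 2.09e-06) in control nerve. The difference, -0.58 (SE 0.18, adjusted p = 0.118), did not pass. It lies on chromosome 19 from 3896050 to 3907133, minus strand.

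Atp6v0a1, the a isoform abundant in the nervous system, had 73.2, 81.7 and 64.7 CPM in dKO and 115, 103 and 89.0 CPM in control nerve at 5 days, and 142, 136 and 150 CPM in dKO and 133, 151 and 142 CPM in control intact nerve. Injured libraries were below intact ones in both genotypes and lowest in dKO nerve. It fell by 0.96 on the log2 scale (SE 0.11, adjusted p = 1.09e-05) in dKO and by 0.48 (SE 0.11, adjusted p = 0.003) in control nerve, and the difference (-0.48, SE 0.16, adjusted p = 0.139) passed only without control replicate 4 at 5 days among the fits with a library left out (-0.58, adjusted p = 0.0463). At 5 days it was lower in dKO nerve (-0.48, SE 0.11, adjusted p = 0.0134), a call lost within the second set (-0.28, SE 0.14, adjusted p = 0.449) and without control replicate 1 (-0.39, adjusted p = 0.0617) or dKO replicate 4 (-0.41, adjusted p = 0.053). It was also lost with the replicate numbers as a block (-0.47, adjusted p = 0.0623), with sex as a term (-0.39, adjusted p = 0.0619), with the set term and at a threshold of 0.01, 7 of 26 alternatives in all. Atp6v0a1 lies on chromosome 11 from 101009452 to 101063719, plus strand, and holds the gene of the microRNA Mir6928.

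Atp6v0a2, an a isoform of the Golgi and endosomes, was the least abundant of the 3 with 21.8, 24.6 and 22.2 CPM in dKO and 30.6, 33.5 and 23.8 CPM in control nerve at 5 days. It held 31.3, 42.1 and 33.6 CPM in dKO and 41.4, 45.4 and 36.3 CPM in control intact nerve. At 5 days the genotypes overlapped, through control replicate 4, and injured libraries were below intact ones in each genotype. It fell by 0.64 on the log2 scale (SE 0.15, adjusted p = 0.00332) in dKO nerve and by 0.49 (SE 0.15, adjusted p = 0.0154) in control nerve. With the library set as a term neither fall passed (-0.21 with adjusted p = 0.602 in dKO, and -0.36 with adjusted p = 0.0668 in control nerve), and the control fall was also lost without control replicate 4 at 5 days (-0.36, adjusted p = 0.067), with the replicate numbers as a block (-0.42, adjusted p = 0.0573) and at a threshold of 0.01. The gene lies on chromosome 5 from 124628576 to 124724455, plus strand, opposite the antisense model 4930404A12Rik and the small RNA Gm24854.

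Per length, Tcirg1 made up 62.3% ± 2.6 of the summed RPKM of these 3 a subunit genes in dKO and 61.1% ± 3.6 in control nerve at 5 days, and 35.6% ± 2.6 in dKO and 31.8% ± 5.2 in control intact nerve (SD, n = 3 each). Atp6v0a1 made up 28.9% ± 2.5 and 30.5% ± 3.3 in dKO and control nerve at 5 days, and 51.8% ± 3.6 and 53.2% ± 3.9 in intact nerve. The injured libraries were parted from the intact ones in both shares. The genotypes overlapped in both, at 5 days and in intact nerve.

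Atp6v0e encodes a small membrane subunit of V0. It held 90.0, 80.0 and 75.0 CPM in dKO and 109, 100 and 112 CPM in control nerve at 5 days, and 86.9, 66.0 and 69.9 CPM in dKO and 72.0, 77.5 and 73.7 CPM in control intact nerve. Injured control libraries were above all others, and the injured dKO libraries overlapped both intact groups. It rose in control nerve (0.53, SE 0.11, adjusted p = 0.00136), while the dKO change was 0.14 (SE 0.11, adjusted p = 0.337). At 5 days it was lower in dKO nerve (-0.39, SE 0.11, adjusted p = 0.0352), the least firm of the 8 calls: it was lost within the second set (-0.46, SE 0.16, adjusted p = 0.204) and without any 1 of dKO replicates 3 and 4, control replicates 1 and 4 and control intact replicate 1 (adjusted p from 0.0588 to 0.111). In all it passed in 10 of 26 alternatives, DESeq2 and limma-voom among them, and was also lost with the replicate block (-0.38, adjusted p = 0.114), the sex or set term, the size factors of DESeq2, upper-quartile scaling, the stricter filter, the compared groups alone, the authors' normalized values and a threshold of 0.01. Atp6v0e lies on chromosome 17 from 26663231 to 26699647, plus strand.

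The accessory genes were both lower in injured dKO than in injured control nerve. Atp6ap1, whose product helps to assemble V0 in the endoplasmic reticulum, held 177, 174 and 176 CPM in dKO and 264, 262 and 238 CPM in control nerve at 5 days, and 213, 189 and 201 CPM in dKO and 219, 222 and 220 CPM in control intact nerve. Injured dKO libraries were below, and injured control libraries above, all intact libraries, and in intact nerve too the dKO libraries were below the control ones. Neither transection change passed in edgeR (-0.20, SE 0.09, adjusted p = 0.0836 in dKO and 0.21, SE 0.09, adjusted p = 0.0597 in control nerve), but the dKO one did without control intact replicate 2 (-0.23, adjusted p = 0.0357) and the control one in 5 of 26 alternatives: without control replicate 4 at 5 days (0.26, adjusted p = 0.0334), in limma-voom (0.21, adjusted p = 0.0396), and with upper-quartile scaling, the stricter filter or the set term. Without control replicate 4 at 5 days the difference of the changes passed too (-0.46, adjusted p = 0.046). The 5 day genotype change was -0.54 (SE 0.09, adjusted p = 0.00117), while within the second set it was -0.44 (SE 0.12, adjusted p = 0.0911). Atp6ap1 lies on chromosome X from 74297097 to 74304721, plus strand.

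Atp6ap2, also known as the prorenin receptor, held 61.0, 60.9 and 62.3 CPM in dKO and 88.6, 90.2 and 87.1 CPM in control nerve at 5 days, and 53.7, 49.1 and 51.2 CPM in dKO and 59.5, 66.1 and 58.4 CPM in control intact nerve. The dKO libraries lay below the control ones at 5 days and in intact nerve. It rose by 0.26 (SE 0.09, adjusted p = 0.0233) in dKO and by 0.53 (SE 0.09, adjusted p = 0.000128) in control nerve. The dKO rise was lost with the library set as a term (0.30, SE 0.15, adjusted p = 0.199) and without any 1 of the 6 dKO libraries or control intact replicate 1 (adjusted p up to 0.111), in all in 10 of 26 alternatives, which include no low-count filter and a threshold of 0.01. At 5 days the genotype change was -0.53 (SE 0.09, adjusted p = 0.00104), while within the second set it was -0.50 (SE 0.12, adjusted p = 0.0486). Atp6ap2 lies on chromosome X from 12587801 to 12617049, plus strand.

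In intact nerve 0 of the 10 passed between the genotypes in edgeR, DESeq2 or limma-voom, which sets them apart from no other genes, since 0% of all tested genes were higher and 0.00447% lower in dKO than in control nerve. Before adjustment 1 of the 10, Atp6ap2, had a p under 0.05 in edgeR (-0.26, SE 0.09, adjusted p = 0.85). The median was -0.03, against -0.01 for all genes, and the 10 changes ran from -0.28 to 0.20. dKO and control libraries were parted for 2 of the 10, both lower in dKO nerve (Atp6ap1 and Atp6ap2), where 14.6% of all tested genes were so parted.

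The test of the difference between the transection changes passed for 4 of the 10, Atp6v0d2, Atp6v0b, Atp6v0c and Atp6v0d1, each with a lower value in dKO nerve. Among all tested genes 2.17% had a lower and 0.737% a higher change in dKO nerve. All 10 estimates were below 0, with a median of -0.52, against -0.03 for all genes, and Atp6v0a2 turned positive (0.15) with the library set as a term. Atp6v0d1 passed with -0.56 (SE 0.14, adjusted p = 0.0425) and lost the call with the library set as a term (-0.41, SE 0.15, adjusted p = 0.375) and without any 1 of the libraries other than control replicate 4 at 5 days and control intact replicate 2 (-0.59 to -0.49, adjusted p from 0.0681 to 0.125). It passed in 5 of 25 alternatives, DESeq2 among them, and was lost in the other 20, which include limma-voom (adjusted p = 0.0501), the replicate block (-0.59, adjusted p = 0.0538), sex as a term, the second set alone, the other scalings and the authors' normalized values. This comparison uses the same libraries as the others and is not a separate line of evidence for them.

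In level per length (RPKM), Atp6ap1 stood highest in every group, at 58.1 ± 0.57 in dKO and 84.2 ± 4.8 in control nerve at 5 days, and at 66.5 ± 3.9 in dKO and 72.7 ± 0.53 in control intact nerve (SD, n = 3 each). In control nerve at 5 days its range overlapped that of Atp6v0b, the next in order. Atp6v0d2 was lowest in dKO nerve at 5 days (1.77 ± 0.65 RPKM) and in both intact groups, below Atp6v0a2 without overlap. In control nerve at 5 days it held 27.6 ± 2.1 RPKM, in overlap with Atp6v0e (28.9 ± 1.7 RPKM) and above Atp6v0a1 and Atp6v0a2. Atp6v0d1 stood above Atp6v0b in intact nerve without overlap (53.4 ± 2.4 against 35.9 ± 0.95 RPKM in dKO nerve), and below it in control nerve at 5 days (65.0 ± 6.6 against 79.1 ± 2.7 RPKM). In dKO nerve at 5 days these 2 genes overlapped. The order between genes rests on the length used, the union of all annotated exons, which may differ from the RNA present. The level of Atp6v0b may also include reads of Gm12841.

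Genes of the outer V1 sector were set beside those of V0. Of 13 listed, 10 were tested, and with transection 3 rose and 1 fell in dKO nerve and 8 rose and 1 fell in control nerve. Among all tested genes 22% rose and 22.6% fell in dKO nerve, and 24.4% rose and 22.4% fell in control nerve. At 5 days 8.97% of all tested genes were lower in dKO nerve and 3.12% higher. Of the 10 V1 genes 8 were lower and 0 higher, with a median of -0.61. The largest of these was Atp6v1b2 (-1.08, SE 0.09, adjusted p = 5.19e-06), a subunit of the part of V1 that splits ATP, followed by Atp6v1g1 (-0.94, SE 0.14, adjusted p = 0.000448) and Atp6v1h (-0.79, SE 0.13, adjusted p = 0.00145). Atp6v1g2, an isoform known from neurons, fell in both genotypes (-0.57 in dKO and -0.61 in control nerve). In the difference of the transection changes 1 of the 10 passed, Atp6v1b2 (-1.03, SE 0.13, adjusted p = 0.000481). Among all tested genes 2.17% had a lower and 0.737% a higher change in dKO nerve there.

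Of 3 other V0 genes, 2 were lower in dKO nerve at 5 days: Rnasek (-0.69, SE 0.12, adjusted p = 0.00149) and Atp6v0e2 (-0.47, SE 0.10, adjusted p = 0.00649). Atp6v0a4 did not pass (0.16, SE 0.30, adjusted p = 0.76). Of 12 genes for assembly and regulation of the pump 11 were tested, and 1, Tmem9b (-0.36, SE 0.11, adjusted p = 0.0438), was lower in dKO nerve at 5 days. With transection 1 rose and 5 fell in dKO nerve, and 2 rose and 4 fell in control nerve. The shares over all tested genes were 22% and 22.6% in dKO nerve, and 24.4% and 22.4% in control nerve. At 5 days 8.97% of all tested genes were lower in dKO nerve and 3.12% higher. In intact nerve 0 genes of these lists and of V1 passed in edgeR, DESeq2 or limma-voom, with 1 gene of V1 and 1 of the assembly list at a p under 0.05 before adjustment in edgeR.

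Markers of other cells were read beside these changes. Macrophage markers (13 tested) summed to 1585, 2148 and 1723 CPM in dKO and 1618, 2045 and 2613 CPM in control nerve at 5 days, and to 269 to 459 CPM in dKO and 260 to 420 CPM in control intact nerve. With transection 12 of the 13 rose in each genotype, against 22% of all tested genes in dKO and 24.4% in control nerve. At 5 days 1 of the 13, Cd68, a membrane protein of lysosomes, was lower in dKO nerve (-0.87, SE 0.25, adjusted p = 0.0373), and their median was -0.23. The share of all tested genes lower in dKO nerve at 5 days was 8.97%. The summed ranges of dKO and control nerve at 5 days overlapped, whereas those of Atp6v0d2 did not. Lyz2 alone gave 515 to 772 CPM of the sum in dKO and 535 to 1045 CPM in control nerve, so the sum leans on this gene. Whether macrophages carry part of the change in the V0 genes was not tested.

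**Figure D5:**
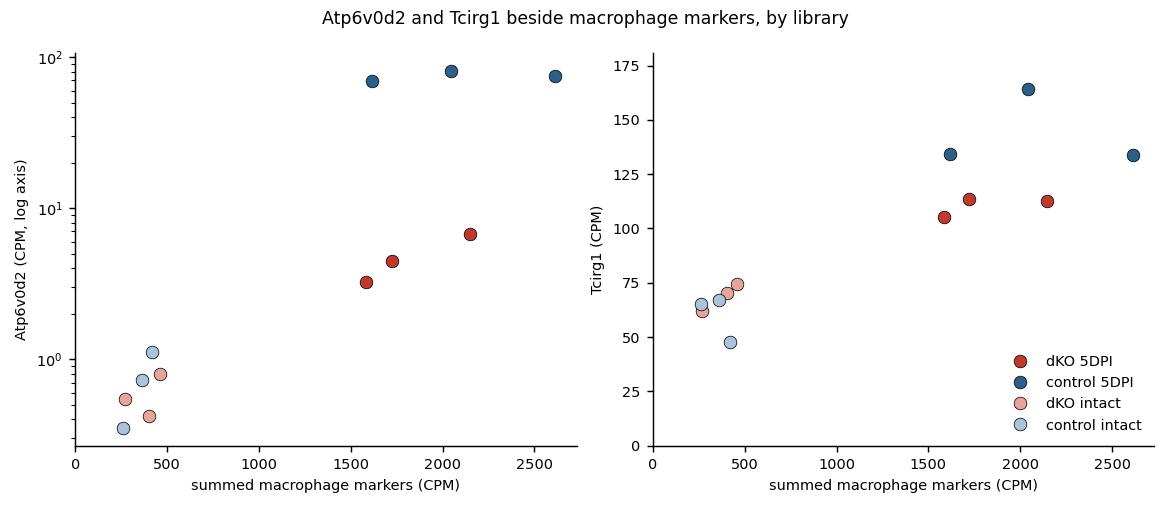
CPM of Atp6v0d2 (left, log axis) and Tcirg1 (right) against the summed CPM of 13 macrophage markers, 1 point per library, coloured by group. At 5 days the marker sums of dKO (1585 to 2148) and control nerve (1618 to 2613) overlapped, and the points of Atp6v0d2 did not.

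Atp6v0d2 is also a gene of osteoclasts and fused macrophages, so 8 markers of such cells were read. Dcstamp and Ocstamp, which are needed for the fusion of these cells in mice, had at most 21 and 12 counts in any library. At 5 days the 8 summed to 183 to 206 CPM in dKO and 140 to 179 CPM in control nerve, mostly from Ctsk, Itgb3 and Acp5, and 0 of 6 tested passed between the genotypes in edgeR (2 at an unadjusted p under 0.05), against 1 in DESeq2 and 1 in limma-voom. Schwann cell markers summed to 3690 to 4520 CPM in dKO and 2238 to 3263 CPM in control nerve at 5 days. Of 10, 3 were higher in dKO nerve and 4 lower (Sox10, S100b, Cdh19 and Foxd3), where 3.12% of all tested genes were higher and 8.97% lower. Fibroblast markers summed to 10725 to 11952 CPM in dKO and 6520 to 9266 CPM in control nerve, and 1 of 6, Col1a1, was higher in dKO nerve (0.56, SE 0.14, adjusted p = 0.0168), against 3 called in DESeq2 and 3 in limma-voom. The part of these cells in the V0 changes was not tested.

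Between the genotypes at 5 days 0 markers passed in edgeR, DESeq2 or limma-voom among 3 tested of neutrophils, 4 of endothelium, 4 of fat cells, 3 of muscle and 5 of mast cells, although 1 of endothelium and 3 of muscle had an unadjusted p under 0.05 in edgeR. Their summed levels at 5 days were 3.14 to 4.16 CPM in dKO and 2.20 to 5.42 CPM in control nerve for neutrophils, and 431 to 587 CPM in dKO and 318 to 354 CPM in control nerve for endothelium. Fat cell markers summed to 597 to 796 CPM in dKO and 338 to 668 CPM in control nerve, muscle markers to 2.72 to 30.1 CPM in dKO and 0.501 to 3.16 CPM in control nerve, and mast cell markers to 79.8 to 107 CPM in dKO and 78.3 to 168 CPM in control nerve.

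In the promoter windows shown above, Atp6v0b held CACGTG in 2 copies, from -36 to -31 and from -18 to -13 counted from the start, Atp6v0d1 had it across the start and Atp6v0e just after it. The genes with the letters were lower in dKO nerve at 5 days, with changes of -0.82 (Atp6v0b), -0.62 (Atp6v0d1) and -0.39 (Atp6v0e). Atp6v0c, with TCATGTG, was lower too (-0.81). Of the 4 genes with none of the motifs in their windows, Atp6ap1 (-0.54), Atp6ap2 (-0.53) and Atp6v0a1 (-0.48) were lower, and Tcirg1 (-0.38) did not pass. The only Atp6v0a1 start searched, at 101010398, lies inside the gene model, which begins at 101009452. The only Atp6v0e start searched, at 26676396, lies inside its gene model too, which begins at 26663231. For both genes the promoter at the outer end was not searched. A match describes these letters and not a site in use.

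The gene models whose log2 CPM followed Atp6v0d2 most closely over the 12 libraries, of 13233 considered, were Ezh2 (Pearson r = 0.990), Cep72, Myo5a, Eps8 and Lgals3 (r = 0.984). Predicted models, known by their names, were left out before this ranking. The libraries share the injury and the genotype, and no test was made. Lgals3, which encodes galectin-3, averaged 151 CPM in dKO and 2213 CPM in control nerve at 5 days, and 34.7 CPM in dKO and 31.3 CPM in control intact nerve. Closest to Tcirg1 were Ets1 (r = 0.991), Neurl1b, Nsl1, Dpp3 and Rps6ka3. Closest to Atp6v0a1 were a model whose name a spreadsheet had turned into a date, then Magi2 (r = 0.986), Sox10, Amigo1 and Cobll1. Sox10, a transcription factor of the Schwann cell lineage, averaged 182 CPM in dKO and 302 CPM in control nerve at 5 days, and 597 CPM in dKO and 513 CPM in control intact nerve.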

How the data were processed

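PolyA RNA of sciatic nerve was sequenced from Ion Total RNA-Seq libraries, per the labels' protocols. The authors deposited whole-number counts per gene model, and a normalized signal, in which the ratio to the counts is constant within a library. The submitters' processing notes name mm10, DESeq2 and R 4.2.1; aligner, read counter, strand setting and annotation: not given in the sources used here. Counts were tested with edgeR 4.0.16 (R 4.3.3): filterByExpr with a minimum count of 10, TMM, robust quasi-likelihood F-tests on 4 group means over 12 libraries, adjusted over 22384 models at 0.05. An exact test of 3 against 3 cannot go below 0.1 and was not used. RPKM used the exon union of GENCODE M21. Steps were tested on simulated data. Values of some Schwann cell markers are not reported here. All 10 members are named by rule, of the lists at most 3 members by smallest p unless a count of called members is spelled out, and 5 like genes each, from models averaging 1 or more in log2 CPM, predicted models left out. Members, lists, motifs and alternatives were chosen with earlier results of these data known. Alternatives were DESeq2 1.42.0, limma-voom (limma 3.58.1), other scaling, filters and thresholds, fits of the compared groups alone, the authors' normalized signal (log2 of the value plus 1 or 0.5), the replicate numbers as a block, sex, the library set, and each library left out.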

Additional observations from a re-analysis of the deposited data

Results flagged for a closer look

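In 4 of the 10 genes the transection change itself differed between the genotypes by the edgeR test of the difference, against 2.17% of all tested genes with a lower and 0.737% with a higher change in dKO nerve. The dKO change minus the control change was -3.68 for Atp6v0d2, -0.89 for Atp6v0b, -0.81 for Atp6v0c and -0.56 for Atp6v0d1 on the log2 scale. The call of Atp6v0d1 was lost in 20 of 25 alternatives, and the other 3 passed in all 25.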

How the results depend on the processing

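Over 26 alternatives (25 for the difference of changes) the lower level in dKO nerve at 5 days passed in each for Atp6v0d2 (-4.30 to -3.73), Atp6v0b, Atp6v0c and Atp6ap2, and the difference of changes passed in each for Atp6v0d2 (-4.08 to -3.34), Atp6v0b and Atp6v0c. All 10 genes kept an estimate below 0 at 5 days in all 26. In dKO nerve 4 of the 7 transection calls passed at a threshold of 0.01, where 3097 genes were higher and 3811 lower in all. With the set term 3 passed, where 2146 genes were higher and 2153 lower in all. At 5 days 4 of the 8 calls passed with that term, where 145 genes were higher and 370 lower in all, and 4 within the second set (174 and 362); the set effect rests on control replicate 4 alone. In the smaller fits the lone control library is assumed to vary like the others. Upper-quartile scaling shifted the median of all genes by 0.141 (transection in dKO nerve), 0.108 (5 days) and 0.128 (difference). It gave 6246 higher and 4044 lower genes with transection in dKO nerve (main 4930 and 5067), 1075 and 1345 at 5 days (main 699 and 2008) and 224 and 296 in the difference (main 165 and 485). Estimates that turned sign did not pass in any setting. Atp6v0c with transection in dKO nerve was 0.0735 with upper-quartile scaling, and Atp6v0a2 in the difference of changes was 0.147 with the set term and 0.146 within the set. In intact nerve Atp6v0a1 was -0.0116 (DESeq2), -0.0123 (its size factors), -0.0179 (upper-quartile) and -0.00894 and -0.00895 (normalized values), and -0.0614 to 0.0645 with a library left out. Atp6v0c was -0.0105, -0.0111, -0.0192, -0.0105 and -0.0105 in the same settings and -0.0250 to 0.0382 with a library left out. Atp6v0d2 ran from -0.623 to 0.158 and Atp6v0e from -0.132 to 0.0748 with a library left out. The cause of these turns was not tested.

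With the replicate block 7 calls remained for transection in dKO nerve (4446 genes higher and 4867 lower in all), 7 in control nerve (without Atp6v0a2; 4814 and 4605 in all), 6 at 5 days (without Atp6v0a1 and Atp6v0e; 349 genes higher and 1037 lower in all) and 3 in the difference (without Atp6v0d1; 116 and 294 in all), and in intact nerve Atp6v0d1 was 0.0276 and Atp6v0e 0.00406. The deviations of same-numbered dKO libraries, injured and intact, correlated at 0.118, 0.100 and -0.0131, and only for replicate 4 was the correlation with another number higher. Control replicate 1 was female at 5 days (10712 Xist counts). Control intact replicate 1 was male, with 3 Xist counts and 3068 counts on Y-linked genes. That number therefore does not mark the same animal. Whether the other numbers do is not known, and the main fit did not pair the samples. The replicate block gave a number the same term in both genotypes, so it did not pair nerves within animals. Low counts limit Atp6v0d2 in intact nerve.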
